A study of Mus musculus with 2 samples.

Results

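The 10 genes described here encode receptors with which blood progenitors hold on to the bone marrow: the integrin alpha subunits Itga4, Itga5, Itga6, Itgal and Itgam, the integrin beta subunits Itgb1, Itgb2 and Itgb7, the hyaluronan receptor Cd44 and the chemokine receptor Cxcr4. They were chosen by name, with earlier results of these data known, and all 10 were found among 43346 Ensembl gene rows, of which 21474 were protein-coding. The samples were 2 libraries of 1 group, primary megakaryocyte-erythroid progenitors (MEP) sorted from marrow of C57BL/6J males at 5 to 6 weeks of age, with no treatment or engineered allele named in the labels. MEP are bone marrow cells that give rise to red cells and to platelet-forming megakaryocytes. Input was 100 ng of RNA after removal of ribosomal RNA, and the labels give sizes from 200 to 1000 (replicate 1) and from 215 to 1000 (replicate 2) in a unit they do not state. The replicates have separate biosample entries but 1 donor entry. The labels do not state whether the cells came from separate mice, and the spread between them may be technical.

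An integrin works at the cell surface as a pair of 1 alpha and 1 beta chain, and a chain that lacks a partner is mostly kept inside the cell. Pairs with the beta1 chain bind fibronectin, laminin and the vascular adhesion molecule VCAM-1, whereas pairs with the beta2 chain, the leukocyte integrins, bind ICAM proteins. Talin and kindlin bind the tails of beta chains and switch integrins to the state that binds ligand. CD44 binds hyaluronan and is linked to actin by ezrin, radixin and moesin, and CXCR4 senses CXCL12, the chemokine with which marrow stroma retains progenitors.

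Replicate 1 held 39919884 expected counts and replicate 2 held 48043010, of which the 10 genes took 0.194% and 0.174%. Levels are given as TPM, the share of all transcripts after division by length, scaled to 1 fixed total per library, so they can be compared between genes. Much of the TPM of these ribosome-depleted libraries lay outside nuclear protein-coding genes, which held 25.6% of it in replicate 1 and 20.6% in replicate 2. The median expressed protein-coding gene (mean TPM 1 or more) stood at -0.27 on the log2 scale in replicate 2 relative to replicate 1, and replicate ratios below are also given relative to it. All 10 erythroid marker genes reached TPM 1 in each library, as did 4 of 9 megakaryocyte genes, beside 39.4% of all protein-coding genes. Relative to the median gene, all 10 erythroid genes were higher in replicate 2. The globin genes Hbb-bs, at 1.56 in replicate 1 and 14.5 in replicate 2, and Hba-a1, at 5.26 and 21.4, differed most. The summed TPM of the erythroid list was 1425 in replicate 1 and 1427 in replicate 2. The 6 genes listed for the MEP sort include genes that such sorts usually select against, so low values are not missing MEP markers. Kit was the highest, at TPM 43 in replicate 1 and 27.9 in replicate 2. The stem cell marker Ly6a had 0 counts in both. The progenitor marker Cd34 was at TPM 18.3 in replicate 1 and 1.44 in replicate 2, from 2570 and 431 expected counts. Fcgr2b was at 1.03 and 0, Il7r at 0.21 and 1.12, and Fcgr3 at 0.6 and 0.42. The purity of the sort was not tested.

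Of the 10 receptor genes, 8 reached TPM 1 in each library, beside 39.4% of all protein-coding genes. Itgal and Itgam missed that level. The levels spanned from a mean TPM of 50.5 for Itga4 to 0.41 for Itgam, in the order Itga4, Itgb1, Cd44, Itga6, Cxcr4, Itgb7, Itgb2, Itga5, Itgal and Itgam. The values of 2 neighbouring pairs in that order overlapped over the libraries, Itga4 with Itgb1 and Itgb7 with Itgb2. Of those, Itgb7 and Itgb2 changed places between the libraries, and every other gene held the same rank in both. The median of the 10 genes was a TPM of 4.91, beside 0.2 for all 21474 protein-coding genes. In bulk RNA, fewer cells of a type and less RNA per cell cannot be told apart, so a level is an average over the sorted cells.

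**Figure D1:**
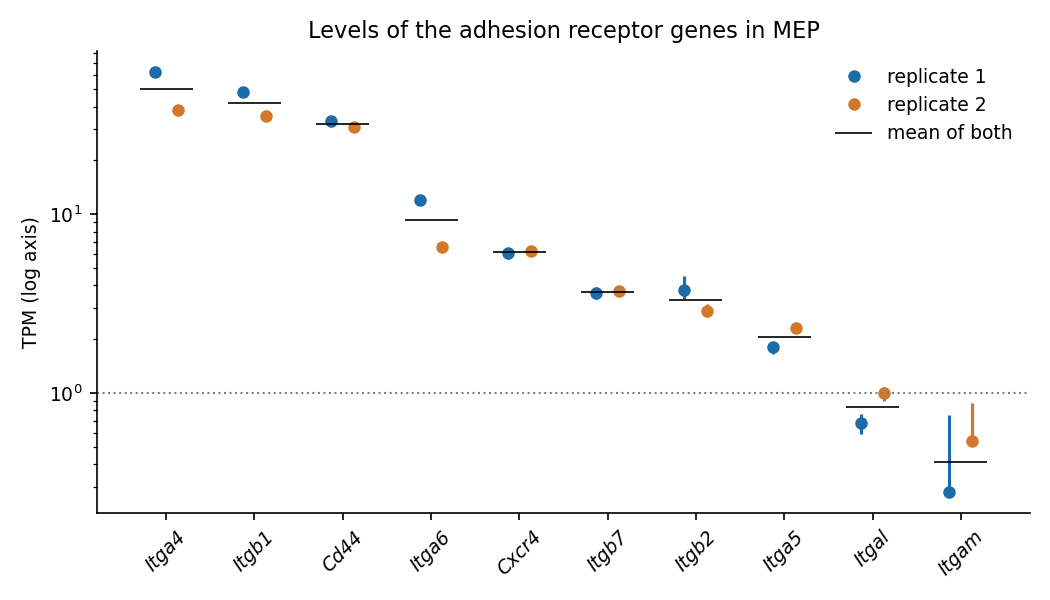
TPM of each receptor gene (log axis) in replicate 1 and replicate 2, with the deposited interval of each TPM as a vertical line, the mean of both libraries as a black bar and a TPM of 1 as a dotted line. Itga4, Itgb1 and Cd44 lie above 30 in both libraries, and Itgal and Itgam do not exceed 1 in either; the point for Itgam in replicate 1 lies below its own deposited interval.

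Itga4 encodes the alpha4 chain, the part of VLA-4 that contacts VCAM-1 and fibronectin, and lies at chr2:79255426-79333123 on the plus strand (mm10, ENSMUSG00000027009.14). It was the highest of the 10 genes, at TPM 62.7 in replicate 1 and 38.3 in replicate 2 (50.5 ± 17.2, SD, n = 2), from 45271 and 44940 expected counts. Replicate 1 was the higher library on the TPM scale, and the deposited intervals, 61.1 to 62.7 and 37.5 to 38.4, did not overlap. Of the 9046 expressed protein-coding genes, 93% lay below Itga4 in replicate 1 and 90.4% in replicate 2. The replicate ratio was -0.70 on the log2(TPM + 1) scale, or -0.42 relative to the median gene, and relative values stayed below 0 on all 7 scales. The gene overlaps Cerkl on the other strand, and the sources used here do not say whether reads were counted by strand.

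Itgb1 encodes beta1, the shared partner of alpha4, alpha5 and alpha6, and lies at chr8:128685654-128733200 on the plus strand (ENSMUSG00000025809.11). Its TPM was 48.2 in replicate 1 and 35.4 in replicate 2 (41.8 ± 9.09, SD, n = 2), from 14635 and 17011 expected counts. Its range over the libraries overlapped that of Itga4, since the TPM of Itgb1 in replicate 1 exceeded that of Itga4 in replicate 2. Within each library Itga4 was the higher gene and the intervals were apart. The ratio relative to the median gene was -0.16 on the TPM scale and -0.02 on TMM-scaled counts, so the replicates were close to level for Itgb1.

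Itga6 encodes alpha6, the laminin-binding chain of VLA-6, and lies at chr2:71745616-71858416 on the plus strand (ENSMUSG00000027111.11). Its TPM was 12.1 in replicate 1 and 6.54 in replicate 2 (9.31 ± 3.92, SD, n = 2), from 3444 and 2908 expected counts. It had the most negative replicate ratio of the 10 genes on all 7 scales, at -0.52 relative to the median gene on TPM and -0.47 on TMM-scaled counts. It was also 1 of only 2 of the genes, with Itga4, to have fewer expected counts in the deeper library.

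Itga5 encodes alpha5, the chain that makes beta1 a fibronectin receptor through the RGD motif, and lies at chr15:103344286-103366763 on the minus strand (ENSMUSG00000000555.6). Its TPM was 1.82 in replicate 1 and 2.31 in replicate 2 (2.07 ± 0.347, SD, n = 2), from 689 and 1291 expected counts. Replicate 2 was the higher library, with intervals apart, and the ratio relative to the median gene was 0.50 on TPM and 0.64 on TMM-scaled counts. Among expressed protein-coding genes it was low, above 9.33% of them in replicate 1 and 19.5% in replicate 2.

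Set against its shared partner, the TPM of Itga4 was 1.3 times that of Itgb1 in replicate 1 and 1.08 times in replicate 2, a log2 ratio of 0.25 ± 0.19 (SD, n = 2). The TPM of Itgb1 was 3.99 and 5.41 times that of Itga6 in replicates 1 and 2, and 26.5 and 15.3 times that of Itga5. So alpha4 RNA was near the level of beta1 RNA, and RNA of the other 2 alpha chains was below it in both libraries. A sum over these 3 alpha genes, chosen after the values were seen, was 76.6 in replicate 1 and 47.1 in replicate 2, or 1.59 and 1.33 times Itgb1, and Itga4 made up 81.8% and 81.2% of it. With protein-coding transcripts only, a setting also chosen after the values were seen, Itga4 was at 49.2 against 44.2 for Itgb1 in replicate 1 and at 34.0 against 35.2 in replicate 2, so the order of the pair turned in replicate 2. RNA ratios do not measure pairs at the surface.

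**Figure D2:**
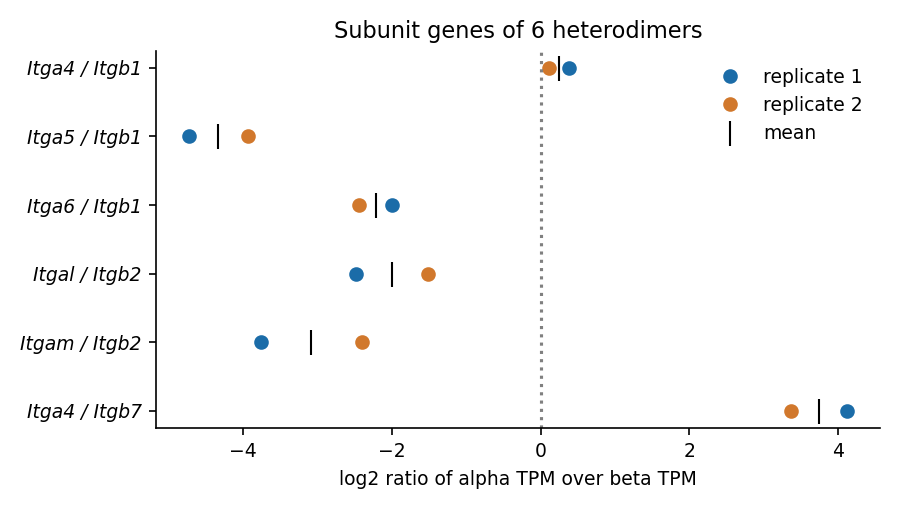
The log2 ratio of the alpha gene's TPM over the beta gene's TPM for 6 integrin heterodimers, with 1 point per library and the mean as a black tick; the dotted line marks equal TPM. Only the pairs with Itga4 lie to the right of it, at a mean of 0.25 over Itgb1 and 3.74 over Itgb7, and the lowest is Itga5 over Itgb1 at -4.33.

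Itgb7 encodes beta7, the other partner of alpha4, with which it forms the receptor for the mucosal vessel protein MAdCAM-1. It lies at chr15:102215995-102231944 on the minus strand (ENSMUSG00000001281.5). Its TPM was 3.61 in replicate 1 and 3.7 in replicate 2 (3.66 ± 0.0636, SD, n = 2), from 807 and 1217 expected counts. The libraries had nearly the same TPM and their intervals overlapped, while the ratio relative to the median gene was 0.30. Itga4 was 17.4 times Itgb7 in replicate 1 and 10.3 times in replicate 2.

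The leukocyte integrin genes were low. Itgb2, which encodes the shared beta2 chain and lies at chr10:77530252-77565708 on the plus strand (ENSMUSG00000000290.9), was at TPM 3.79 in replicate 1 and 2.86 in replicate 2 (3.33 ± 0.658, SD, n = 2), from 702 and 1025 expected counts. Which library was higher depended on the scale. As CPM, counts scaled to the library total with no length, the values were 17.6 and 21.3, and the ratio relative to the median gene was -0.04 on TPM and 0.30 on TMM-scaled counts. In replicate 1 a transcript of 364 bases, Itgb2-203, held 27.5% of the gene's TPM from 14 expected counts, and in replicate 2 it had 0. The full-length Itgb2-201 was at TPM 2.7 in replicate 1 and 2.23 in replicate 2, and Itgb2-204, annotated as a target of nonsense-mediated decay, had 9.8 and 203 expected counts.

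Itgal encodes alphaL, the partner of beta2 in LFA-1, and lies at chr7:127296260-127335138 on the plus strand (ENSMUSG00000030830.14). Its TPM was 0.68 in replicate 1 and 1 in replicate 2 (0.84 ± 0.226, SD, n = 2), from 245 and 577 expected counts. Replicate 2 was higher on all 7 scales relative to the median gene, by 0.52 on TPM and 0.90 on TMM-scaled counts. Only 0.741% of expressed protein-coding genes lay below it in replicate 1 and 4.47% in replicate 2.

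Itgam encodes alphaM, or CD11b, a defining chain of myeloid cells that MEP sorts usually select against, and lies at chr7:128062640-128118491 on the plus strand (ENSMUSG00000030786.14). Its TPM was 0.28 in replicate 1 and 0.54 in replicate 2 (0.41 ± 0.184, SD, n = 2), from 103 and 298 expected counts. Replicate 2 was higher by 0.54 relative to the median gene on TPM and by 1.03 on TMM-scaled counts. The deposited TPM intervals of the 2 libraries overlapped, that of replicate 2 being 0.535 to 0.878. All of these counts were assigned to ENSMUST00000126475, a transcript of 4310 bases that is in the authors' annotation and not in the newer one used for names here. The other 8 transcripts listed under the gene had 0 counts in both libraries. Of these, 6 are protein-coding in the newer annotation, which assigns some of them to a readthrough gene over this locus, Gm49368. The point value of replicate 1 lay under its own deposited interval of 0.291 to 0.755, and the posterior mean TPM was 0.5 in replicate 1 and 0.69 in replicate 2.

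Within the leukocyte pairs the beta chain exceeded both alpha chains. The TPM of Itgb2 was 5.57 and 2.86 times that of Itgal in replicates 1 and 2, and 13.5 and 5.3 times that of Itgam. Together the 2 alpha genes reached TPM 0.96 in replicate 1 and 1.54 in replicate 2, or 0.253 and 0.538 times Itgb2, a sum chosen after the values were seen.

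Markers of mature leukocytes, which carry these integrins, differed between the same libraries. The summed TPM of 8 neutrophil genes was 64.7 in replicate 1 and 132 in replicate 2, led by S100a8 and S100a9. Of all 9046 expressed protein-coding genes, 154 were past 2-fold higher in replicate 2 on TPM and 585 past 2-fold lower. Among the expressed genes of the neutrophil list, 4 were past 2-fold higher in replicate 2 and 1 past 2-fold lower. The lower one was Mpo, the myeloperoxidase gene of early granulocytes, at 8.53 and 1.64, and Elane was also lower, at 0.39 and 0.05. The summed TPM of 10 T and NK cell genes was 11.6 and 37.2. Its highest gene, Nkg7 of cytotoxic granules, was at 7.01 and 5.02, the granzyme gene Gzma at 0 and 9.03, and the NK receptor gene Ncr1 at 0.43 and 6.62. Of the T cell genes, Cd3e, Cd4 and Cd8a had 0 counts, and Cd3g had 12 and 89. Of 9 monocyte and macrophage genes, only the chemokine receptor gene Ccr2, at 1.88 and 5.08, reached TPM 1 in each library, and Adgre1, C1qa, C1qb and Siglec1 had 0 counts. That list summed to 3.27 and 5.31, although C1qc, at 0.91 and 0, and Mrc1, at 0.4 and 0, were higher in replicate 1. The 6 B cell genes summed to 0.95 and 1.95, with Ms4a1 and Pax5 at 0 counts. The 6 mast cell and basophil genes went the other way, with a summed TPM of 9.84 and 2.54, Cpa3 at 6.81 and 1.53 and Mcpt8 at 0 counts. The leukocyte marker lists did not all move in the same direction between the libraries. On TPM, Itgal and Itgam were higher in replicate 2, with overlapping intervals for Itgam, and Itgb2 was lower. On TMM-scaled counts relative to the median gene each was higher in replicate 2, by 0.90 for Itgal, 1.03 for Itgam and 0.30 for Itgb2. The part of such cells in the levels of Itgb2, Itgal and Itgam was not tested.

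Cd44 lies at chr2:102811141-102901665 on the minus strand (ENSMUSG00000005087.13). It was the third gene in level, at TPM 33 in replicate 1 and 30.9 in replicate 2 (32.0 ± 1.53, SD, n = 2), from 10586 and 13176 expected counts. The replicates were close, with intervals of 31.9 to 33.5 and 29.96 to 31.3 that just missed each other. Relative to the median gene the ratio was 0.18 on TPM and 0.08 on TMM-scaled counts. Of expressed protein-coding genes, 85.7% lay below Cd44 in replicate 1 and 87.7% in replicate 2.

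CD44 messages differ by a block of variable exons in the part that encodes the stem next to the membrane. Over its 8 protein-coding transcripts the annotation has 9 constant and 10 variable coding exons, numbered here 5′ to 3′ by their place in the block. The joins after the constant exon at chr2:102853015-102853236 tell the 3 best supported coding transcripts apart and are shown for that reason. In lower case are the last 30 bases of that constant exon, and in capitals the first 30 bases of the exon joined to it (GENCODE M21 transcripts, mm10, minus strand, 5′ to 3′).
Cd44-203: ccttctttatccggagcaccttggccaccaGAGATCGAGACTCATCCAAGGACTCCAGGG
Cd44-206: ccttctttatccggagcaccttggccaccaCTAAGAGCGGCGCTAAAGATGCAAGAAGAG
Cd44-207: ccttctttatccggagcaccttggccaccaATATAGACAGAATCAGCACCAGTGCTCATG
Cd44-203 skips the whole block and continues at chr2:102828542-102828610, a constant exon, so it is the standard form. Cd44-206 holds only variable exon 10, at chr2:102831330-102831536. Cd44-207 continues at variable exon 5, at chr2:102842261-102842377, and holds 5 of the variable exons.

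The standard form Cd44-203 was at TPM 11.5 in replicate 1 and 15.7 in replicate 2, which was 34.7% and 50.7% of the gene. Cd44-207 had a TPM of 15.9 and 10.5, or 48.1% and 33.9%. The leading transcript by TPM was therefore Cd44-207 in replicate 1 and Cd44-203 in replicate 2. By expected counts Cd44-207 led in both, with 6993 and 6791 beside 2749 and 5520 for Cd44-203. Cd44-206 held 1.72% and 8.72% of the TPM, and Cd44-209, which retains an intron, held 15.3% and 6.58%.

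All coding transcripts with at least 1 variable exon together held 50% of the gene's TPM in replicate 1 and 42.7% in replicate 2. That share rests mainly on Cd44-207, which has 2197 bases that Cd44-203 lacks. Of these, 636 lie in variable exons, 1406 at the 3′ end and 155 at the 5′ end. Reads in any of these stretches can count towards Cd44-207, and the tables do not separate them, so inclusion of the variable exons themselves was not tested. The splicing regulators Esrp1 and Esrp2, which favour variable exons in epithelial cells, had 0 counts in both libraries.

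**Figure D3:**
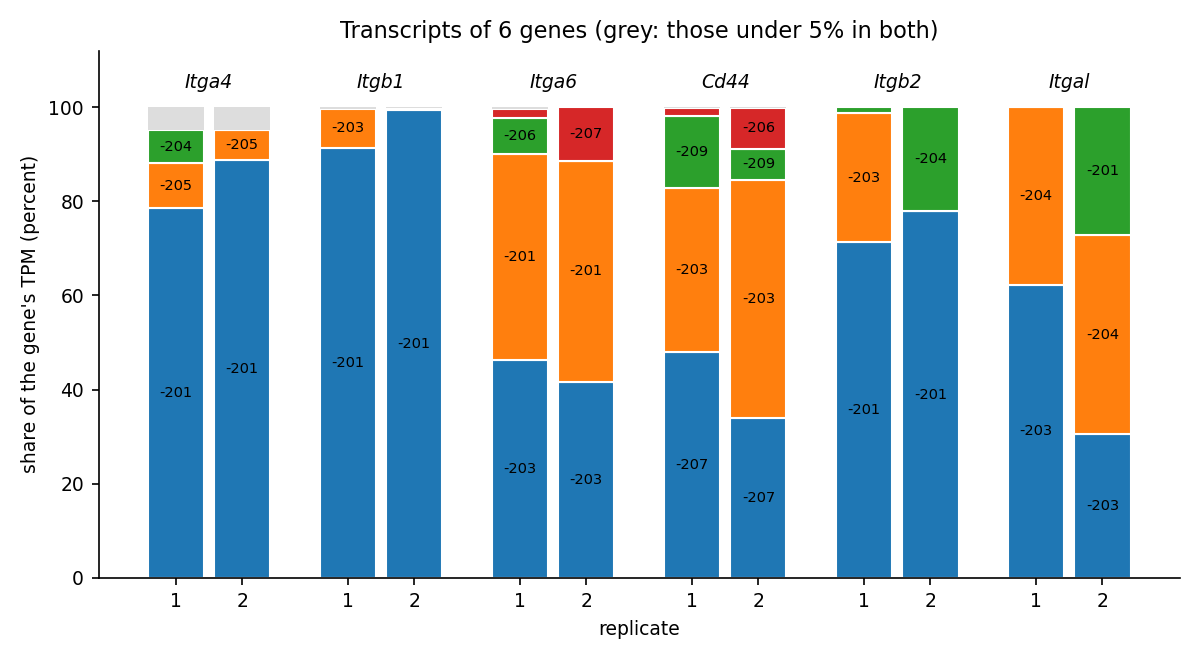
Share of each gene's TPM by transcript (percent) in replicates 1 and 2 for 6 receptor genes; bar labels are the transcript numbers, and grey holds transcripts under 5% in both libraries. Itga4 and Itgb1 are each dominated by transcript 201, whereas the leading transcript changes between the libraries for Itga6, Cd44 and Itgal.

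Transcript makeup was the same at the top for 7 of the 10 genes, and for 6 of the 9 that have more than 1 transcript. For Itgam, Itgb7 and Cxcr4 only 1 transcript had counts in either library, and the share over all genes was not computed. Itga4-201, the 1 coding transcript of Itga4, held 78.5% of the gene's TPM in replicate 1 and 88.8% in replicate 2, and 94.7% and 97% of its expected counts. The other Itga4 transcripts are annotated as non-coding processed transcripts, of which Itga4-204 held 7.06% in replicate 1 and had 0 counts in replicate 2. Itgb1-201 held 91.4% and 99.4%, and the 651-base Itgb1-203, which retains an intron, held 8.29% and 0.37%. All expected counts of Cxcr4, Itgb7 and Itga5 were on their transcripts numbered 201. Itgal was split, with Itgal-203 at 62.2% and 30.5%, Itgal-204 at 37.8% and 42.4%, and Itgal-201 at 0 in replicate 1 and 27.2% in replicate 2, on few counts.

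Alpha6 has a pair of known cytoplasmic tails, called A and B, that differ by 1 alternative exon, and the coding segments that end each form are shown to mark where they part. Capitals mark the stop codon (GENCODE M21 transcripts, mm10, plus strand, 5′ to 3′). The first lies in the alternative exon at chr2:71853534-71853641, and the second in the last exon at chr2:71855854-71856015.
Itga6-201: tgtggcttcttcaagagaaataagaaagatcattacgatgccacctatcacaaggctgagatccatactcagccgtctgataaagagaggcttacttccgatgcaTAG
Itga6-202: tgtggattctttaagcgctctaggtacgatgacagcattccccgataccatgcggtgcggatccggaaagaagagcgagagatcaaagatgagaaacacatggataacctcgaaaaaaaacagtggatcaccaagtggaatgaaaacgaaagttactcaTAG
The alternative exon of 130 bases is in Itga6-201, the A form, and adds 105 coding bases before the stop codon. Itga6-202, the B form, skips it and reads 159 coding bases of the last exon.

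Of the full-length forms, Itga6-201 had 1975 expected counts in replicate 1 and 1686 in replicate 2, and Itga6-202 had 15.65 and 0. However, Itga6-203, a non-coding annotation of the 3′ end, also skips the alternative exon, and it had 1278 and 914 expected counts, 46.4% and 41.7% of the gene's TPM. Transcripts with the alternative exon together held 45.7% of the TPM in replicate 1 and 58.3% in replicate 2, and those that skip it held 46.7% and 41.7%. Of the 1690 bases of Itga6-203 that Itga6-201 lacks, 1658 lie past the end of Itga6-201. Reads there count towards Itga6-203 whichever exon was used upstream, so the use of the A and the B tail was not tested.

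Cxcr4 lies at chr1:128588199-128592293 on the minus strand (ENSMUSG00000045382.6). Its TPM was 6.07 in replicate 1 and 6.25 in replicate 2 (6.16 ± 0.127, SD, n = 2), from 877 and 1328 expected counts. The libraries differed little and their intervals, 5.62 to 6.42 and 5.88 to 6.54, overlapped. The ratio relative to the median gene was 0.31 on TPM and 0.35 on TMM-scaled counts. It lay above 40.9% of expressed protein-coding genes in replicate 1 and 48.6% in replicate 2, near the middle.

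On TPM as it stands, none of the 8 receptor genes at a mean TPM of 1 or more differed by over 2-fold between the replicates. The share over the 9046 expressed protein-coding genes was 8.17%. Relative to the median gene, Itga5, Itgal, Itgam, Itgb7, Cd44 and Cxcr4 were higher in replicate 2 on all 7 scales and Itga4, Itga6 and Itgb1 lower, whereas Itgb2 had no fixed direction. Itgam, under the TPM minimum, was past 2-fold on the count scales as they stand, at 1.05 log2 units on TMM-scaled counts, from 103 and 298 expected counts. With 1 group of 2 libraries no test was possible, since the smallest p of an exact sign test (two-sided) is then 0.5.

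**Figure D4:**
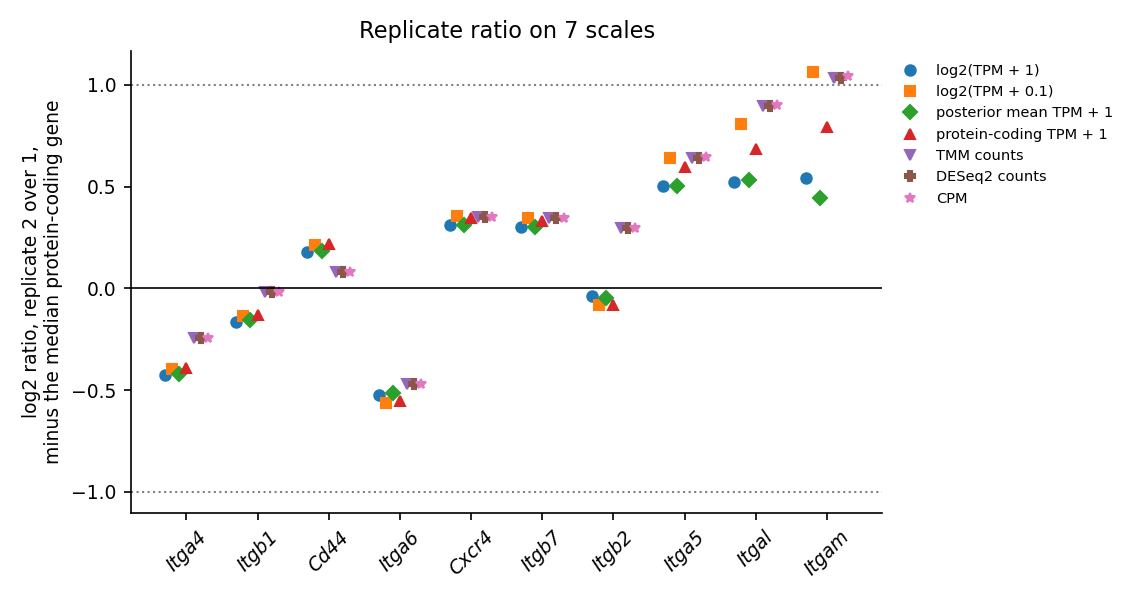
The log2 ratio of replicate 2 over replicate 1 for each receptor gene, minus that of the median protein-coding gene, on 7 scales; dotted lines mark 2-fold and the solid line the median gene. Itga6 lies lowest on every scale, the points of Itgb2 fall on both sides of the solid line, and only Itgam crosses the dotted line.

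The other integrin genes were mostly at or near 0. Of 13 further alpha genes, Itga2b and Itgav reached TPM 1 in each library, and the median was 0.045. Itga2b, the platelet integrin chain CD41, was at 19.6 in replicate 1 and 5.7 in replicate 2, from 2525 and 1205 expected counts, and was higher in replicate 1 also on TMM-scaled counts, above Itga6 there and below it in replicate 2. Itgav, a chain of vitronectin receptors, was at 2.77 and 9.06, but its expected counts were 688 and 734, so the difference in TPM was not in the counts. None of 6 further beta genes reached TPM 1 in each library, and Itgb3, the partner of Itga2b, was at 0.96 and 0.55. Itga11, Itgad, Itgae, Itgb6 and Itgb2l had 0 counts in both libraries. The 9 megakaryocyte marker genes summed to TPM 50.7 in replicate 1 and 21.6 in replicate 2, led by Pf4, at 23.5 and 8.71, and Itga2b. They did not move as one. Gp9, at 0.43 and 1.65, Vwf, at 1.44 and 2.01, and Gp1ba, at 0.13 and 0.18, were higher in replicate 2. Of the 5 expressed genes of that list, 3 had a replicate ratio below that of the median gene and 2 above. The part of megakaryocyte or erythroid cells in the levels of Itga4 and Itga6, both lower in replicate 2, was not tested.

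**Figure D5:**
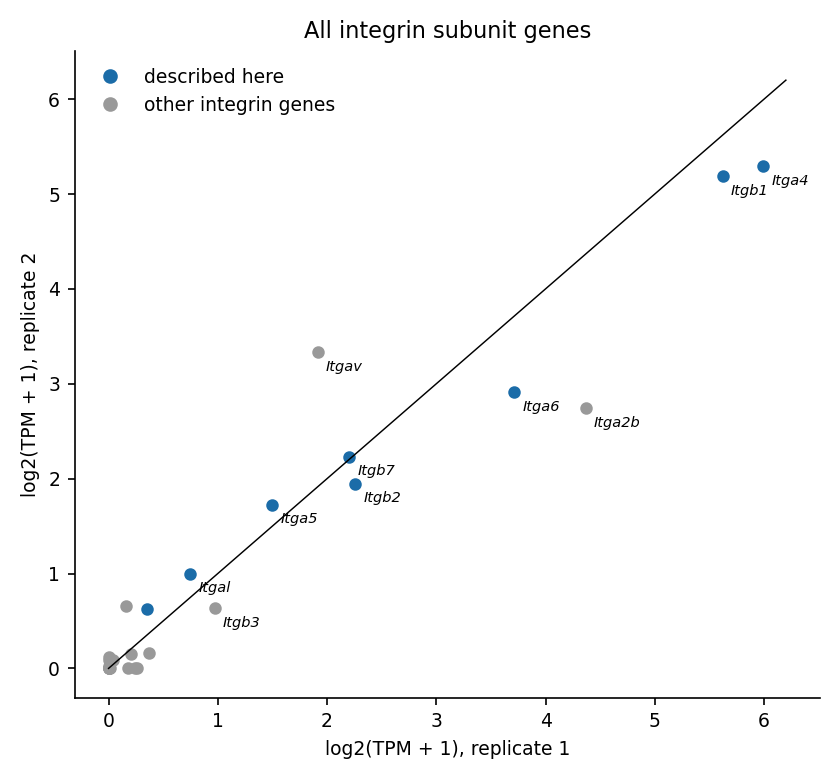
Levels of all 27 integrin subunit genes, as log2(TPM + 1) in replicate 1 (horizontal) and replicate 2 (vertical), with the line of equal values; blue points are the 8 integrin genes described here and grey points the others, and genes over 0.7 on either axis are named. Itga4 and Itgb1 stand apart at the top right, and Itga2b and Itgav lie farthest from the line, on opposite sides.

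Most genes that switch integrins on were detected. Of 29 activation and adhesion complex genes, 22 reached TPM 1 in each library, with a median of 8.57 beside 4.91 for the receptors. Over all protein-coding genes that share was 39.4% and the median 0.2, the background for this list and those that follow. The talin gene Tln1 was at 80.5 in replicate 1 and 45 in replicate 2, but had 20111 and 24789 expected counts. The blood cell kindlin gene Fermt3 was at 56.7 and 42.3, while the other kindlin genes, Fermt1 and Fermt2, had 0 counts. The GTPase genes Cdc42, at 116 and 87.4, and Rhoa, at 66.5 and 65.2, and the kinase gene Ilk, at 40.2 and 32.5, were the others among the top 5. Parvg, the parvin of blood cells, was past 2-fold lower in replicate 2 on TPM, at 45.8 and 17.4, but had 4933 and 5586 expected counts, and Parva had 0. Of the 9046 expressed protein-coding genes, 585 were past 2-fold lower in replicate 2 on TPM, the background for such calls here and in the lists that follow. Of 10 genes that hold integrins inactive or recycle them, 9 passed TPM 1 in each library with a median of 9.05, led by the filamin gene Flna at 80.0 and 72.5 and the recycling GTPase gene Rab11a at 29.7 and 17.8. The sorting nexin gene Snx17, at 10.4 and 10.4, Sharpin, at 8.74 and 10.7, and the GTPase gene Rab21, at 11.7 and 7.41, followed.

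The linkers of CD44 were expressed with it. Rdx was at TPM 83 in replicate 1 and 66.9 in replicate 2, Ezr at 42.9 and 43.6, and Msn at 22.6 and 21.2. The RNA-binding proteins Tra2b, at 222 and 154, and Khdrbs1, at 27.4 and 24.2, act on CD44 exons in other cells. In all, 9 of 16 genes of that list passed TPM 1 in each library, and the hyaluronan synthase genes Has1 and Has2 had 0 counts.

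Of 19 genes around CXCR4, 14 passed TPM 1 in each library, with a median of 10.6. The G protein genes Gnai2, at 57.5 in replicate 1 and 49.2 in replicate 2, Gnb1, at 28.9 and 33.8, and Gnai3, at 33.6 and 24.6, were all above Cxcr4 itself, as was the arrestin gene Arrb1 at 18.8 and 20.7. The second CXCL12 receptor gene, Ackr3, and the G protein gene Gnai1 had 0 counts. The genes of 2 G protein inhibitors were past 2-fold lower in replicate 2: Rgs1 was at 181 and 26.4 and Rgs18 at 23.8 and 8.69, while Cxcr4 was level on TPM.

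Among 20 selectin ligand and other adhesion receptor genes, 13 passed TPM 1 in each library, with a median of 3.27. Bsg, which encodes basigin, was at 93.6 in replicate 1 and 95.4 in replicate 2, and Spn, which encodes the sialomucin CD43, was at 93.7 and 63.3, both above Itga4. Cd81, at 63 and 45.2, Cd47, at 36.2 and 33.7, and Cd164, at 38.1 and 20.8, completed the top 5. The expected counts of Cd81 were 4930 in replicate 1 and 6463 in replicate 2. Genes of niche ligands, not all of them ligands of the receptors described here, were mostly near 0 in the MEP themselves. Of 17 niche ligand genes, 2 passed, Icam2 at 22.0 and 11.1 and the erythroid Icam4 at 4.04 and 8.71, both ligands of leukocyte integrins. Icam1 was at 0.75 and 0.47 and the fibronectin gene Fn1 at 0.58 and 0.27. Vcam1, the ligand of VLA-4, was at 0.19 and 0.07, Cxcl12 was at 0.21 and 0.31, and Madcam1, Lama4, Lamb1, Vtn and Kitl had 0 counts.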

How the data were processed

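Per the labels, rRNA-depleted RNA was sequenced as ScriptSeq libraries. The authors deposited 1 gene and 1 transcript table per library, with the expected count (not normalized), the TPM and the FPKM, per the file headers, on mm10 with GENCODE M4 (as given by the text files deposited with the tables). The signal columns used here are the bounds of the TPM that the authors deposited, whose level is not stated. The transcript shares of a gene's TPM are percent values as the authors deposited them. The aligner and quantifier are not given in the sources used here. Names, classes and coordinates came from GENCODE M21 on the same assembly, and 42462 of 43346 gene IDs matched.

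The receptor genes and all lists were chosen with earlier results of these data known. Each value is given per library with mean and SD. Replicate ratios are log2 of (TPM + 1), relative to the median of the 9046 expressed protein-coding genes (mean TPM 1 or more), and the difference is understated for low genes. Calls of 2-fold used the ratio on each scale as it stands, without taking off that median. The other scales were a pseudocount of 0.1, posterior mean TPM, TPM rescaled to nuclear protein-coding genes, TMM-scaled counts (edgeR 4.0.16), DESeq2 1.42.0 size factors and CPM, the last added after the data were seen. The total used for the rescaled TPM left out globin genes, whereas the share of TPM in nuclear protein-coding genes given above includes them. Expected counts were rounded before scaling. No p-value was computed between the libraries. The code for the 2-fold count was tested on simulated data. The floor taken for a count of 0 was 3 counts, which in a gene of 2 kb is TPM 0.0164 (replicate 1) or 0.0112 (replicate 2). Floors cover counting error only, as the tables carry no molecular identifiers.

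Named genes were the 10 receptor genes, of each list the 5 with the highest mean TPM, those past 2-fold between replicates at a mean TPM of at least 5 and those with 0 counts. Of each marker list the rule takes the 2 highest and those with 0 counts. Not printed of these are the further integrin genes Itga2, Itga8, Itgax, Itgb4, Itgb5 and Itgb8, all under a TPM of 1, and some genes of the erythroid, B cell, mast cell and stroma marker lists. Ncr1, Elane, Mpo, Cd3g, C1qc, Mrc1, Vcam1 and the transcripts beyond the leading ones were named after their values were seen. So were Fcgr2b, Fcgr3 and Il7r of the sort genes, Gp9, Vwf and Gp1ba of the megakaryocyte markers and Hbb-bs and Hba-a1 of the erythroid markers. Python 3.11.15 and R 4.3.3 were used.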

Additional observations from a re-analysis of the deposited data

How the results depend on the processing

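No receptor gene with a mean TPM of at least 1 passed 2-fold between the replicates on any of the 7 scales. The number detected in both libraries was 8 to 10 under the other scales and count minimums, 9 in replicate 2 alone and 8 in replicate 1 alone, and 5 at a TPM of at least 5. With protein-coding transcripts only, an alternative chosen after seeing the data, the log2 ratio of Itga4 over Itgb1 was 0.053 and that of Itga6 over Itgb1 was -3.10. By construction this drops the non-coding transcripts described with each gene, and it could give no value for Itgam. With a pseudocount of 1 the log2 ratio of Itgal over Itgb2 was -1.23 and that of Itgam over Itgb2 was -1.62, since the constant is large beside these levels. The other pair ratios moved by less than their SD over the libraries. Posterior mean shares gave the same leading transcript in both libraries for 7 genes, and expected counts for 9. No paired analysis was possible because the series has 1 group. Depth limits the lowest genes most: Itgam rests on 103 and 298 expected counts, and its posterior mean TPM of 0.5 in replicate 1 stands well above the point value of 0.28.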
